A study of Danio rerio with 12 samples.

Results

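The autophagy genes described here are 44 zebrafish genes. Their names mark them as genes of the autophagy machinery, its receptors and transcription factors, or the lysosome membrane. They were chosen by the start of the gene name in the files (atg, ulk, ambra, becn, wipi, gabarap, map1lc3, calcoco, sqstm1, optn, nbr1, tfeb and tfe3, and lamp), with a floor on low values. The files list 26873 genes, of which 22320 reached a value of 10 in 3 or more of the 12 libraries, and all 44 genes met that floor. The rule itself reads names and overall level, but it was drawn up with earlier results of these data known. Another 7 genes carry matching names in capital letters (NBR1, LAMP1, GABARAPL1, ATG14, ATG2A, WIPI1 and RB1CC1) and were left outside, and 0 of them passed the test in any dose comparison.

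The series measured the toxicity of perfluorooctanesulfonate (PFOS), a persistent fluorinated surfactant, by RNA-seq of whole wild-type zebrafish. Larvae of 5 days post fertilization (dpf) had been kept from 2 to 5 dpf in water with 0.2% DMSO alone (the control), or in water with 0.03, 0.3 or 1 ppm PFOS and the same 0.2% DMSO. Each of the 4 groups had 3 libraries, numbered as replicates 1 to 3, and each library pooled 10 larvae. The labels do not say whether the replicates came from separate clutches, so the p-values measure the spread between these libraries only.

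Autophagy delivers cytoplasm and organelles to the lysosome inside a double-membraned vesicle, the autophagosome. Work in yeast and mammals has divided the machinery into steps. A kinase complex around ULK1 starts the process, a lipid kinase complex around beclin 1 marks the membrane, and ATG9, ATG2 and WIPI proteins supply and recognise it. Conjugation enzymes then couple small ubiquitin-like proteins of the ATG8 family (LC3 and GABARAP) to the membrane, where receptors such as p62 and the CALCOCO proteins tether the cargo. Transcription factors of the TFEB and TFE3 group control many autophagy and lysosome genes.

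Values are the authors' normalised counts, and the libraries held 24061372 to 31907243 of them in total. The original read counts behind them are unknown, so no counting intervals are given. The 44 genes together made up 0.0967% to 0.134% of a library. Differences are on the scale of log2(value + 1) and were tested with limma over all 22320 genes. A gene is called changed at a Benjamini-Hochberg adjusted p under 0.05. Because gene lengths are not in the files, levels are compared between libraries and not between genes. In whole larvae, fewer cells of a type and less RNA per cell cannot be told apart.

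Among the autophagy genes, 2 receptor genes fell with PFOS and no other member passed the test against the control. calcoco1b (ENSDARG00000016391) fell at every dose, by 2.02, 2.05 and 2.13 on the log2 scale at 0.03, 0.3 and 1 ppm. calcoco2 (ENSDARG00000052515) was lower by similar amounts at every dose, with log2 differences of -0.81, -0.95 and -0.79. It was called at 0.3 ppm and over the mean of the doses. In mammals CALCOCO1 is a receptor for autophagy of the endoplasmic reticulum and the Golgi, and human CALCOCO2, also called NDP52, is a receptor for bacteria and damaged mitochondria.

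calcoco1b had 320, 230 and 325 normalised counts in control replicates 1, 2 and 3. At 0.03 ppm it had 47, 84 and 88, at 0.3 ppm it had 71, 90 and 51, and at 1 ppm it had 75, 63 and 58. All 9 exposed libraries lay far below the lowest control library, and the doses overlapped one another. The exposed libraries averaged 69.7 ± 15.9 (SD, n = 9) and the control libraries 292 ± 53.5 (SD, n = 3). The mean of the doses was 4.19-fold lower than the control, a log2 difference of -2.07 (SE 0.23, 95% interval -2.56 to -1.57), with a limma adjusted p of 0.00197. The adjusted p was 0.0278 at 0.03 ppm, 0.0167 at 0.3 ppm and 0.0111 at 1 ppm.

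No gradation by dose was detectable for calcoco1b within the exposed range. The difference between 1 ppm and 0.03 ppm was -0.11 on the log2 scale, with a 95% interval of -0.72 to 0.50 and an adjusted p of 0.997. A slope over the order of the 4 groups was -0.64 per step (limma adjusted p 0.0131), and this slope includes the step between control and 0.03 ppm. The drop held within each replicate number, which follows from every exposed library lying below every control library. The ratios of each number share the same control library. Exposed libraries were 4.27- to 6.81-fold below the control of the same number in replicate 1, 2.56- to 3.65-fold in replicate 2 and 3.69- to 6.37-fold in replicate 3.

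calcoco2 had 491, 430 and 400 normalised counts in control replicates 1, 2 and 3, 218, 265 and 271 at 0.03 ppm, 233, 224 and 221 at 0.3 ppm, and 282, 259 and 225 at 1 ppm. The groups were again apart, since the highest exposed library (282) was below the lowest control library (400). The exposed libraries averaged 244 ± 24.8 (SD, n = 9), against 440 ± 46.4 (SD, n = 3) in the control. The mean of the doses was 1.80-fold lower than the control, a log2 difference of -0.85 (SE 0.12, 95% interval -1.12 to -0.58), with a limma adjusted p of 0.0104. By dose, the log2 difference was -0.81 at 0.03 ppm (adjusted p 0.147), -0.95 at 0.3 ppm (adjusted p 0.0313) and -0.79 at 1 ppm (adjusted p 0.102). Between 1 ppm and 0.03 ppm it was 0.02, with a 95% interval of -0.30 to 0.35.

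The mean-of-doses call of calcoco1b held without any single library, and was lost without replicate 1 (limma adjusted p 0.236) or 3 (0.161) of all groups. Its calls at single doses did not. The 0.03 ppm call was lost without control replicate 1 (limma adjusted p 0.122) or 3 (0.134), without 0.03 ppm replicate 1 (0.105), 2 (0.0529) or 3 (0.0843), and without 0.3 ppm replicate 1 (0.0614). The 0.3 ppm call was lost without control replicate 1 (0.0708) or 3 (0.0861) or 0.3 ppm replicate 1 (0.0892) or 3 (0.0594). The 1 ppm call was lost without control replicate 3 (0.0595) or 1 ppm replicate 1 (0.0502) or 3 (0.0671). All 3 single-dose calls of calcoco1b were also lost without replicate 3 of all groups (0.594, 0.58 and 0.486 at the rising doses). They were lost without replicate 1 of all groups too (0.431 at 0.3 ppm and 0.448 at 1 ppm). Without replicate 2 of all groups the 0.03 ppm (0.0716) and 1 ppm (0.0509) calls were lost. The mean-of-doses call of calcoco2 was lost without control replicate 1 (0.0858) or 2 (0.0669), and with libraries rescaled to equal totals (0.0703). It was also lost without replicate 1 (0.388), 2 (0.191) or 3 (0.298) of all groups. Its 0.3 ppm call was lost without any control library or any 0.3 ppm library (0.0986 to 0.162), and without 0.03 ppm replicate 3 (0.0519). That call was lost, too, without replicate 1 (0.626), 2 (0.474) or 3 (0.587) of all groups. With any of these libraries left out, the log2 difference of calcoco2 for the mean of the doses stayed between -0.92 and -0.77, and that of calcoco1b between -2.33 and -1.94.

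**Figure D1:**
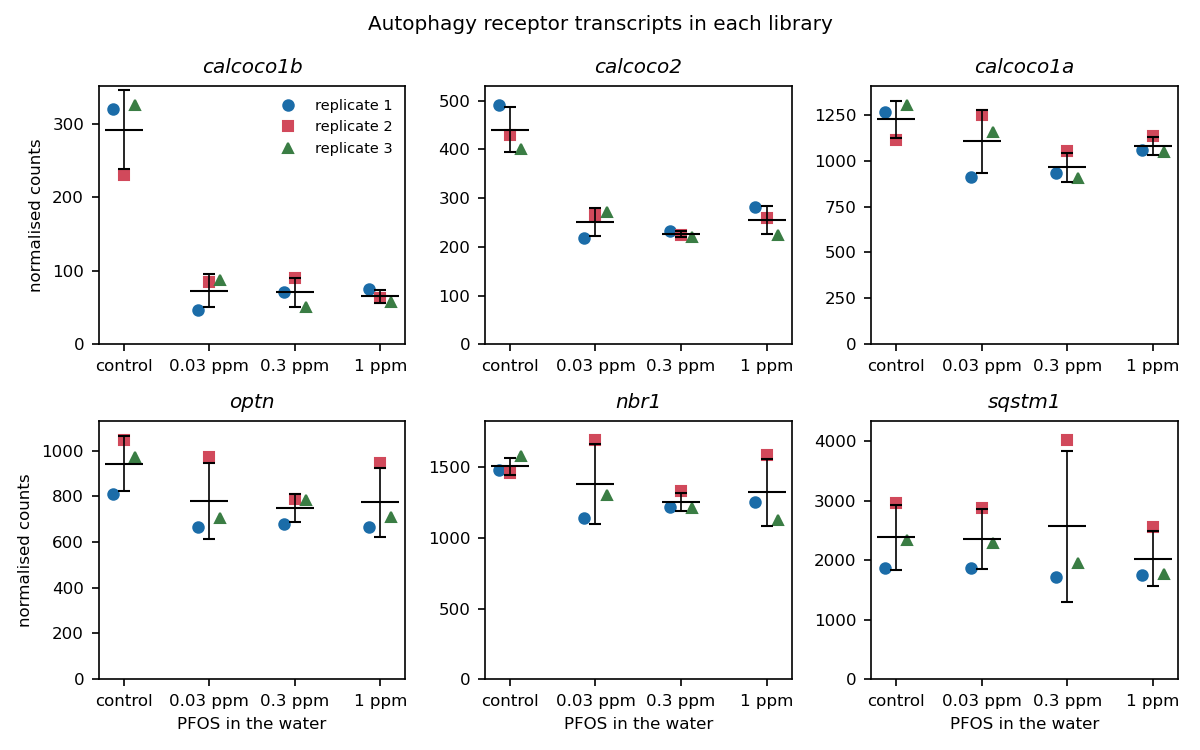
Normalised counts of the 6 autophagy receptor genes in each library, by PFOS dose from the control to 1 ppm. Points are libraries, horizontal dashes are group means and capped vertical bars are SDs. The exposed libraries of calcoco1b (47 to 90) and calcoco2 (218 to 282) lie below every control library, while the groups of sqstm1 overlap.

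The other 4 receptor genes were not called at any dose. At 0.3 ppm alone, the libraries of calcoco1a, optn and nbr1 all lay below the control, as for 3.62% of all genes. calcoco1a, the close paralogue of calcoco1b, had 1262, 1112 and 1302 normalised counts in control libraries, 912, 1247 and 1154 at 0.03 ppm, 931, 1053 and 906 at 0.3 ppm and 1058, 1136 and 1046 at 1 ppm. Its exposed libraries averaged 1049 ± 118 (SD, n = 9) and its control libraries 1225 ± 100.2 (SD, n = 3), a log2 difference of -0.23 with a 95% interval of -0.48 to 0.02. Whether reads of calcoco1a and calcoco1b were shared in the counting was not checked.

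optn encodes optineurin, a ubiquitin-binding receptor, and its log2 difference for the mean of the doses was -0.30. The value was -0.20 for nbr1, which encodes another ubiquitin-binding receptor. sqstm1, which encodes p62, the most studied of these receptors and itself degraded by autophagy, had a value of -0.08 (95% interval -0.60 to 0.45). sqstm1 thus showed no detectable difference with PFOS, but its level followed the replicate number, as described further on. All 6 receptor genes had a mean-of-doses value below 0, as did 32 of the 44 members and 52.5% of all genes.

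Taking all 44 genes together, 1 was called at 0.03 ppm, against 0.0582% of all genes tested. At 0.3 ppm 2 were called (0.13% of all genes) and at 1 ppm 1 was called (0.139% of all genes). For the mean of the doses 2 were called (0.188% of all genes), and for the slope 1 (0.134% of all genes). Every one of these calls was calcoco1b or calcoco2, and all were lower with PFOS. Between 1 ppm and 0.03 ppm limma called 0 members (0.00448% of all genes), with 1 member at an unadjusted p under 0.05 (2.95% of all genes).

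As deposited, the values of the 44 members, calcoco1b and calcoco2 included, lay below the control more often than above it. With PFOS, 33 of 44 members had a log2 difference below 0 at 0.03 ppm, 32 at 0.3 ppm and 34 at 1 ppm, beside 53.3%, 51.2% and 51.7% of all genes. With libraries rescaled to equal totals the count at 0.03 ppm was 21 of 44, beside 43.3% of all genes. The median at that dose was then 0.002 for the members and 0.04 for all genes. On the same scaling the count was 33 at 0.3 ppm (55% of all genes) and 32 at 1 ppm (48.3%). Rescaling by TMM or by median-of-ratios factors left 33, 32 and 34 at the rising doses. As deposited, the median log2 difference of the members was -0.06 at 0.03 ppm, -0.08 at 0.3 ppm and -0.13 at 1 ppm. Over all genes the medians were -0.02, -0.01 and -0.01 at the same doses. The 3 dose comparisons share their control libraries, so their counts do not repeat one another independently.

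At an unadjusted p under 0.05, 3 members passed at 0.03 ppm, 5 at 0.3 ppm and 2 at 1 ppm, beside 3.49%, 2.82% and 4.74% of all genes. For the mean of the doses 4 passed, beside 4.35% of all genes. Members whose 3 exposed libraries all lay below all 3 control libraries numbered 7 at 0.03 ppm (3.86% of all genes), 8 at 0.3 ppm (3.62%) and 6 at 1 ppm (4.33%). Of the 44 members, only atg9a, calcoco1b and calcoco2 had all 9 exposed libraries below all 3 control libraries, which 0.963% of all genes had. In the opposite direction the count was 0 members, and 0.363% of all genes. Outside the rule, ATG14 was also apart, with 334 to 464 exposed and 470 to 498 in the control. Each gene with a capital-letter name had a mean-of-doses value below 0, beside 52.5% of all genes. WIPI1 (-0.60), ATG14 (-0.33) and NBR1 (-0.255) had an unadjusted limma p under 0.05, as had 2.67% of all genes downward.

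**Figure D2:**
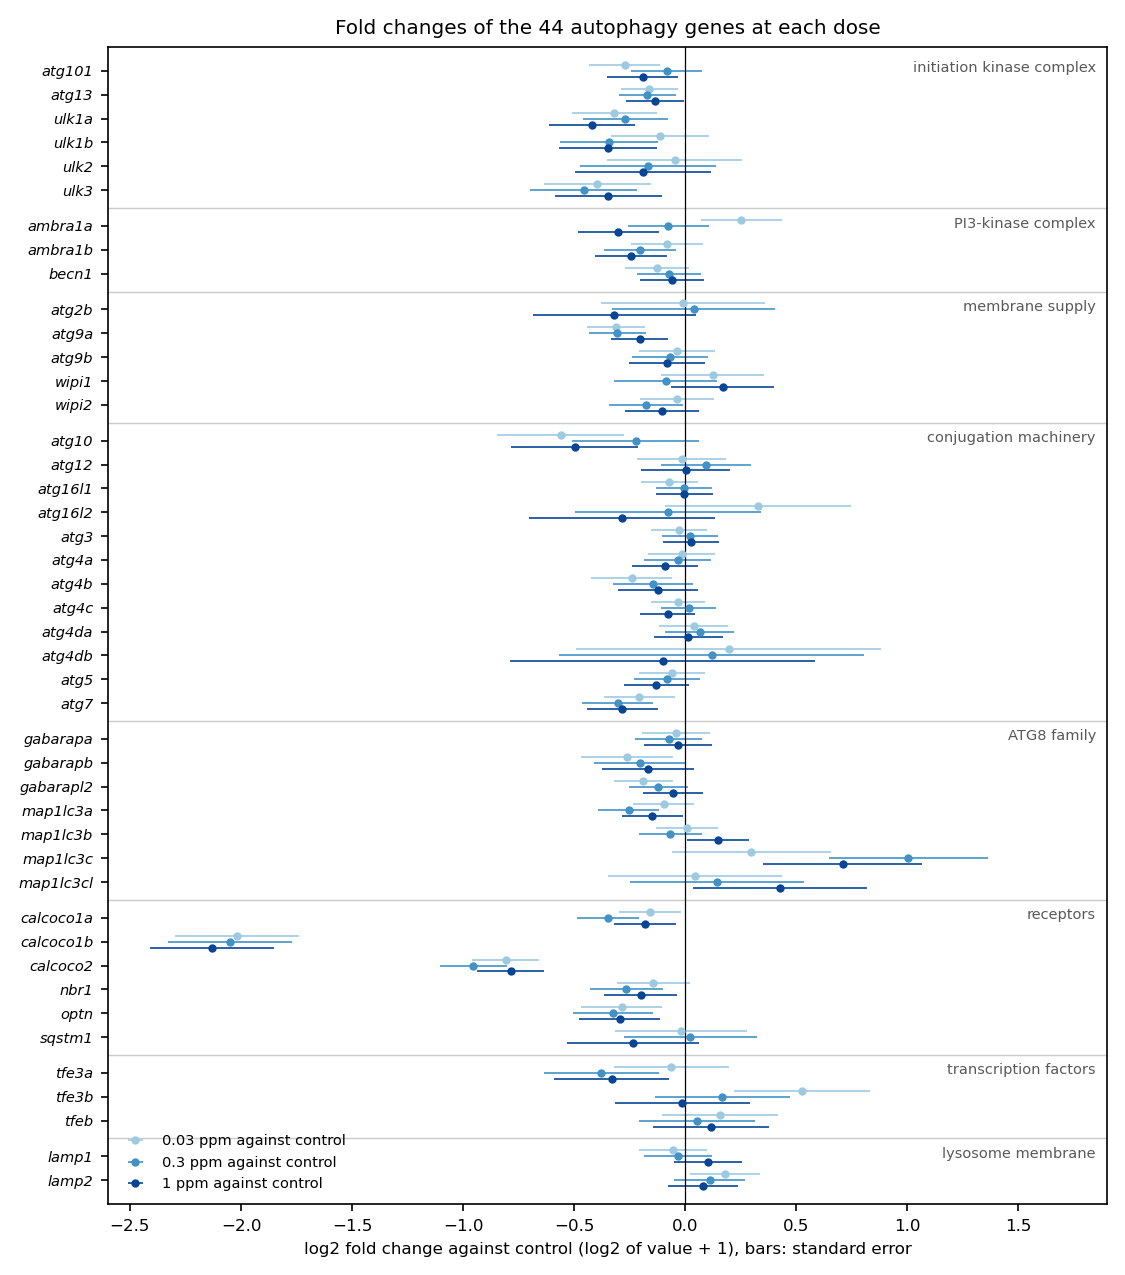
Log2 difference from the control at each PFOS dose for the 44 autophagy genes, grouped by role; points are limma estimates and bars are standard errors. calcoco1b lies near -2 and calcoco2 between -0.79 and -0.95 at all 3 doses, and most other genes lie within a small distance of 0.

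The group of initiation genes comprised ulk1a, ulk1b, ulk2 and ulk3, which encode kinases, and atg13 and atg101, which encode partners of ULK1 in a complex. A part of ulk3 in that complex was not tested. None of the 6 was called. All 6 had values below 0 at every dose, beside 53.3%, 51.2% and 51.7% of all genes at the rising doses, which share their control libraries. The median log2 difference of the 6 was -0.22 at 0.03 ppm, -0.22 at 0.3 ppm and -0.27 at 1 ppm. ulk1a had 445, 588 and 550 normalised counts in control libraries, 360, 539 and 382 at 0.03 ppm, 389, 535 and 395 at 0.3 ppm and 407, 428 and 346 at 1 ppm. Its replicate 2 libraries were the highest of each group, and its 1 ppm libraries alone lay fully below the control. The log2 difference of ulk1a for the mean of the doses was -0.34 (95% interval -0.68 to 0.01). ulk3 had 113, 83 and 65 normalised counts in control libraries, 79, 61 and 55 at 0.03 ppm, 61, 72 and 53 at 0.3 ppm and 70, 61 and 69 at 1 ppm. Its groups overlapped, and its mean-of-doses log2 difference was -0.40.

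The lipid kinase complex was represented by becn1, which encodes beclin 1, and by ambra1a and ambra1b, which encode regulators of beclin 1. None was called. becn1 had 469, 519 and 447 normalised counts in control libraries, 482, 458 and 379 at 0.03 ppm, 433, 465 and 466 at 0.3 ppm and 400, 514 and 470 at 1 ppm. Its groups overlapped, with a mean-of-doses log2 difference of -0.09. ambra1b had 828, 623 and 695 in the control, 622, 793 and 612 at 0.03 ppm, 685, 660 and 519 at 0.3 ppm and 646, 568 and 589 at 1 ppm, also with overlap. Its paralogue ambra1a had the only unadjusted p under 0.05 between 1 and 0.03 ppm, with a log2 difference of -0.55 and a limma adjusted p of 0.997.

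Among the genes for membrane supply and recognition, atg9a stood apart by its groups although it was not called. atg9a encodes a transmembrane protein of the vesicles that seed the autophagosome. It had 636, 706 and 658 normalised counts in control libraries, 523, 580 and 509 at 0.03 ppm, 501, 591 and 529 at 0.3 ppm and 600, 516 and 623 at 1 ppm. Every exposed library lay below every control library, by a small margin (623 against 636). Such a separation was seen for 0.963% of all genes. The exposed libraries averaged 552 ± 45.8 (SD, n = 9) and the control libraries 667 ± 35.8 (SD, n = 3). The log2 difference was -0.27 with a limma adjusted p of 0.989. wipi2, which encodes a protein that binds the lipid mark, had 623, 824 and 944 in the control, 770, 813 and 717 at 0.03 ppm, 650, 646 and 802 at 0.3 ppm and 741, 655 and 805 at 1 ppm. Its groups overlapped. The values for the mean of the doses were -0.06 for atg9b, 0.07 for wipi1 and -0.10 for atg2b, which encodes a lipid transfer protein.

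The conjugation machinery was the largest role, with 12 genes, and none was called. It holds atg7, which encodes the activating enzyme, atg3 and atg10, which encode the transfer enzymes, atg5, atg12, atg16l1 and atg16l2, which encode the ligase complex or its relatives, and 5 atg4 genes for ATG8-processing proteases. For the mean of the doses 8 of the 12 had values below 0, beside 52.5% of all genes. The median of the 12 was -0.03. atg7 had 496, 503 and 483 normalised counts in control libraries, 381, 531 and 388 at 0.03 ppm, 356, 447 and 402 at 0.3 ppm and 369, 458 and 395 at 1 ppm. Its control libraries were tightly grouped, and only its replicate 2 library at 0.03 ppm reached them. The log2 difference of atg7 was -0.26 (95% interval -0.55 to 0.02). atg10 had 80, 103 and 82 in the control, 61, 89 and 38 at 0.03 ppm, 66, 80 and 80 at 0.3 ppm and 49, 71 and 68 at 1 ppm. Its mean-of-doses value was -0.43 on the log2 scale. atg16l1 was the steadiest of all 44 genes, with a ratio of 1.25 between its highest and lowest library.

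The ATG8 family had 7 members, and none was called. For the mean of the doses 4 had values below 0, beside 52.5% of all genes. map1lc3c, an LC3 gene of low value in these libraries, had 9, 12 and 16 normalised counts in control libraries, 15, 15 and 15 at 0.03 ppm, 21, 27 and 28 at 0.3 ppm and 12, 23 and 30 at 1 ppm. At 0.3 ppm all its libraries lay above the control, the only member with such a separation upward at any dose, beside 3.54%, 3.47% and 4.41% of all genes at 0.03, 0.3 and 1 ppm. Its log2 difference at 0.3 ppm was 1.01 (95% interval 0.23 to 1.78) before adjustment over all genes, and it was not called. map1lc3a had 1687, 1636 and 1848 in the control, 1394, 1634 and 1833 at 0.03 ppm, 1473, 1346 and 1517 at 0.3 ppm and 1566, 1389 and 1725 at 1 ppm, with a mean-of-doses value of -0.17. The values of the other ATG8 genes were -0.21 for gabarapb, -0.12 for gabarapl2, -0.05 for gabarapa, 0.03 for map1lc3b and 0.21 for map1lc3cl.

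The transcription factor genes and the lysosome membrane genes were not called either. tfe3a had 143, 110 and 130 normalised counts in control libraries, 102, 117 and 150 at 0.03 ppm, 107, 122 and 71 at 0.3 ppm and 135, 78 and 97 at 1 ppm. tfe3b had 121, 192 and 228 in the control, 209, 312 and 244 at 0.03 ppm, 194, 285 and 136 at 0.3 ppm and 225, 170 and 135 at 1 ppm. The groups overlapped for both, with mean-of-doses log2 differences of -0.26 for tfe3a, 0.23 for tfe3b and 0.11 for tfeb. lamp1 and lamp2 encode abundant glycoproteins of the lysosomal membrane. lamp1 had 731, 587 and 711 in the control, 588, 681 and 680 at 0.03 ppm, 645, 607 and 730 at 0.3 ppm and 735, 609 and 847 at 1 ppm, a mean-of-doses log2 difference of 0.01. lamp2 had 1333, 1782 and 1645 in the control, 1511, 2078 and 1810 at 0.03 ppm, 1493, 1810 and 1818 at 0.3 ppm and 1807, 1659 and 1542 at 1 ppm, a mean-of-doses value of 0.12.

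The members varied little from library to library. The ratio between the highest and the lowest of the 12 libraries had a median of 1.56 over the 44 genes and was below 2 for 30 of them. It was widest for calcoco1b (6.91) and for atg4db (6.06). The median residual SD within groups was 0.20 on the log2 scale for the members and 0.30 for all genes tested. These medians were not matched for expression level.

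**Figure D3:**
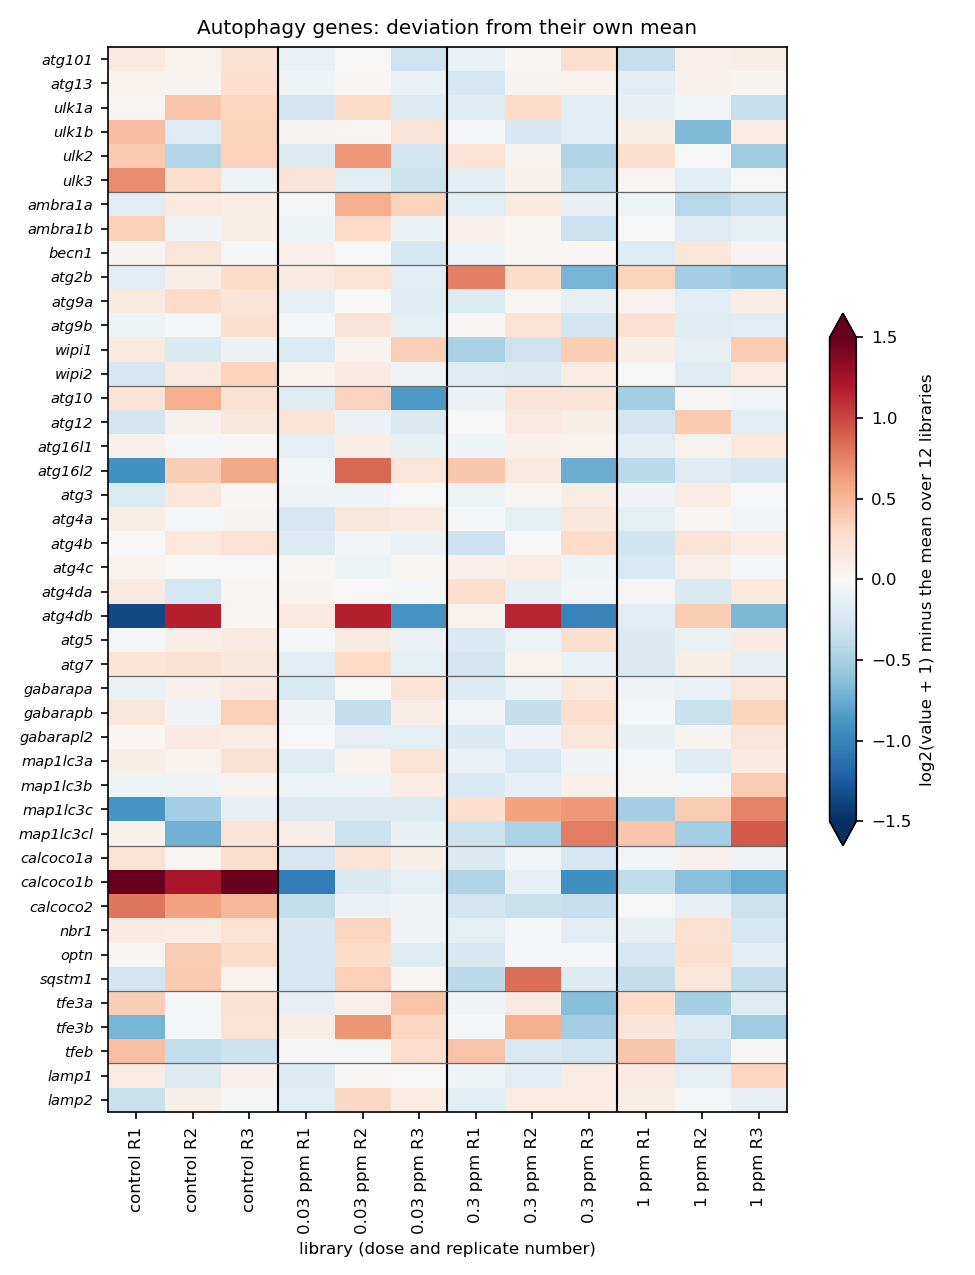
Deviation of each of the 44 autophagy genes (rows, by role) from its own mean over the 12 libraries (columns, by dose and replicate), in log2(value + 1) units. calcoco1b is high in the 3 control libraries and low in the 9 exposed ones, and atg4db and sqstm1 are high in the replicate 2 libraries.

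Part of the variation among members followed the replicate number rather than the dose. In a comparison added after the values were seen, replicate 2 was set against replicates 1 and 3 with the dose groups kept in the fit. Of the 44 members 7 were called, beside 13.9% of all genes, a share near the background. They were atg4db, sqstm1, ulk1a and optn, which were higher in replicate 2 (6.14% of all genes), and ulk1b, gabarapb and map1lc3cl, which were lower (7.74% of all genes).

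sqstm1 had 2958, 2879, 4023 and 2557 normalised counts in replicate 2 of the control and of the 0.03, 0.3 and 1 ppm groups, against 1723 to 2335 in the 8 libraries of replicates 1 and 3. The 2 sets of libraries did not overlap, which held upward for 2 members and for 3.59% of all genes, and the log2 difference was 0.66 (SE 0.12, limma adjusted p 0.00987). atg4db, which encodes a protease that processes ATG8 proteins, had 103, 103, 101 and 59 in the same replicate 2 libraries and 17 to 50 in replicates 1 and 3. Its log2 difference was 1.45 (SE 0.31, adjusted p 0.0158). The differences were smaller for ulk1a (0.36, adjusted p 0.0387), optn (0.33, 0.0455), ulk1b (-0.40, 0.0455), gabarapb (-0.41, 0.0216) and map1lc3cl (-0.76, 0.0289).

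These calls, like those over all genes, depend on which libraries enter the fit. Without 1 ppm replicate 2 limma called 0 members and 1 of all genes, instead of 7 and 3098. The count was 2 without control replicate 2 (1468 of all genes), 1 without 0.03 ppm replicate 2 (513) and 2 without 0.3 ppm replicate 2 (1857). It was 3 without 1 ppm replicate 3 (1331 of all genes), 4 without 0.03 ppm replicate 3 (1914) and 4 without 0.3 ppm replicate 1 (2871). Cell type markers moved along the same line. The summed share of 14 epidermis markers was 7.48% to 10.2% in replicate 2 and 4.33% to 6.87% in replicates 1 and 3, and 12 of the 14 were called higher in replicate 2. The share of 14 neuron markers was 0.0315% to 0.0432% in replicate 2 and 0.0514% to 0.112% in replicates 1 and 3, with 10 called lower. Their part in the autophagy gene values was not tested. A term for the replicate number changed no dose call of any member, and calcoco1b differed by 0.10 and calcoco2 by 0.03 on the log2 scale between replicate 2 and the others.

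**Figure D4:**
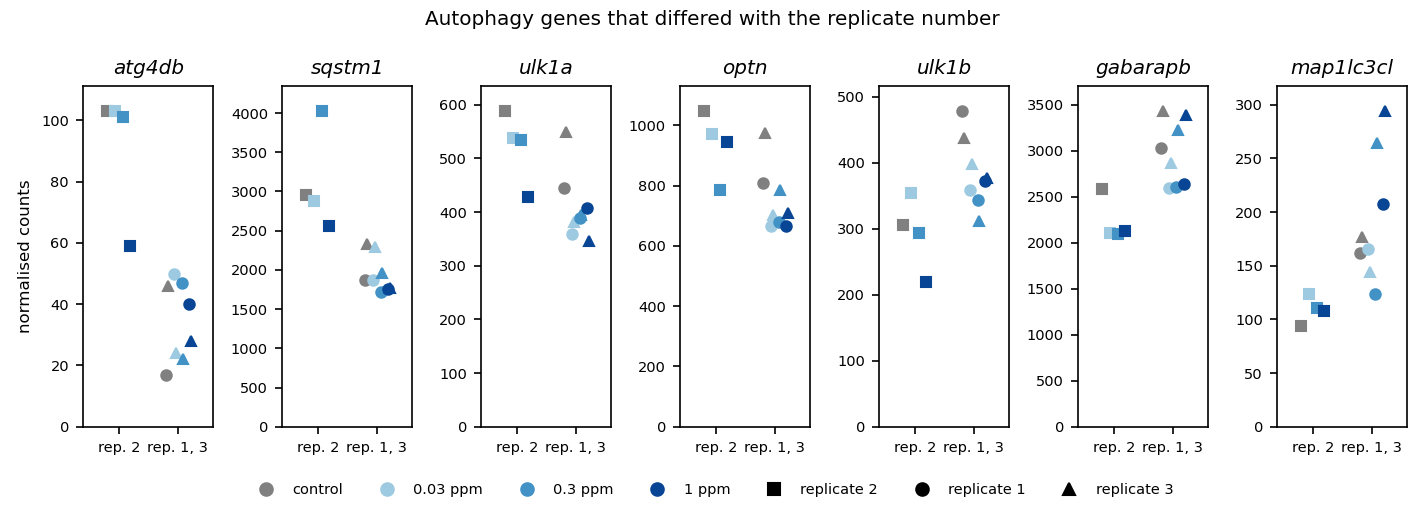
Normalised counts of the 7 autophagy genes called between replicate 2 (left) and replicates 1 and 3 (right), with points coloured by PFOS dose. sqstm1 and atg4db are higher in all 4 replicate 2 libraries than in any of the other 8.

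Some cell type markers were called with PFOS, and some summed shares lay apart from the control. No background over all genes was computed for the summed shares. The summed share of 16 macrophage and neutrophil markers was 0.0187% to 0.0233% in the control. It lay between 0.0152% and 0.0183% at 0.03 ppm, between 0.0149% and 0.0177% at 0.3 ppm, and between 0.0142% and 0.0186% at 1 ppm. These ranges did not overlap the control, but at 1 ppm the gap was only from 0.0186% to 0.0187%. Of the 16 markers 13, 13 and 15 had values below 0 at the rising doses, and 0, 0 and 1 were called. The share of 20 skeletal muscle markers was 11.5% to 12.2% in the control. It lay between 8.51% and 11.4% at 0.03 ppm, between 9.76% and 12.9% at 0.3 ppm, and between 10.5% and 11.4% at 1 ppm, with 0 called. The range at 0.3 ppm overlapped the control, and those at 0.03 and 1 ppm lay below it by a small margin. Values below 0 were seen for 18, 14 and 11 of the 20 muscle markers at the rising doses. Liver markers made up 0.97% to 1.19% at 0.03 ppm and 1.06% to 1.5% at 0.3 ppm. Both ranges overlapped the control (0.787% to 1.16%), while that at 1 ppm (1.33% to 1.5%) lay above it. Of the 16 liver markers tested, 4, 1 and 1 had values below 0 at the rising doses, with 0 called. The share of 14 epidermis markers lay between 6.27% and 10.2% at 0.03 ppm, between 6.03% and 9.32% at 0.3 ppm, and between 4.8% and 10.2% at 1 ppm, against 4.33% to 7.48% in the control, with overlap. Of the 14, 8, 8 and 6 had values above 0 at the rising doses, and 0, 1 and 1 were called, each lower. The called epidermis marker was krt96, with log2 differences of -2.563 at 0.3 ppm (limma adjusted p 0.0052) and -2.615 at 1 ppm (0.0051). Neuron markers made up 0.0315% to 0.0744%, 0.0432% to 0.0699% and 0.0363% to 0.0975% at the rising doses. The control had 0.0349% to 0.112%, with overlap. Values below 0 were seen for 14, 12 and 4 of the 14 neuron markers, with 0 called. Over all genes, 53.3%, 51.2% and 51.7% had values below 0 at the rising doses, and 0.0582%, 0.13% and 0.139% were called. The liver share sums 17 matched entries, of which 16 reached the floor on low values and were tested. The part of these markers in the drop of calcoco1b and calcoco2 was not tested.

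The genes whose pattern was most like that of calcoco1b were ranked by Pearson r of log2(value + 1) over the 12 libraries, among 22319 other genes. The closest was calcoco2, with r = 0.946. It was followed by epdl1, an ependymin-like gene (0.942), fbxo32, the gene of the muscle atrophy ubiquitin ligase atrogin-1 (0.942), and stat1b, a transcription factor gene of interferon signalling (0.938). mkrn1, a makorin ubiquitin ligase gene (0.925), and DUSP27, of the dual-specificity phosphatase family (0.922), came next. In all 19 genes had an r above 0.9 and 3 had one below -0.9, and 6 genes with only a clone or locus name were passed over.

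All of these r values include the split between the 9 exposed and the 3 control libraries. Over deviations from the group means, r with calcoco1b was 0.751 for epdl1, 0.735 for stat1b, 0.642 for fbxo32 and 0.608 for calcoco2. It was 0.212 for DUSP27 and 0.172 for mkrn1. In this order, and with calcoco1b itself counted, these values ranked 382, 458, 1040, 1289, 6970 and 7692 among the 22320 genes tested. Many other genes were therefore more like calcoco1b within the groups. Among the autophagy genes, calcoco1a had the highest such value with calcoco1b (0.869), although its r over all libraries was 0.733. stat1b had 9 to 32 normalised counts in the exposed libraries and 90 to 163 in the control, and DUSP27 had 463 to 650 in the exposed libraries and 1099 to 1560 in the control. The exposed and control libraries of both did not overlap, which held downward for 0.963% of all genes. Both were chosen by r over these same libraries, so this separation largely follows from the choice.

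**Figure D5:**
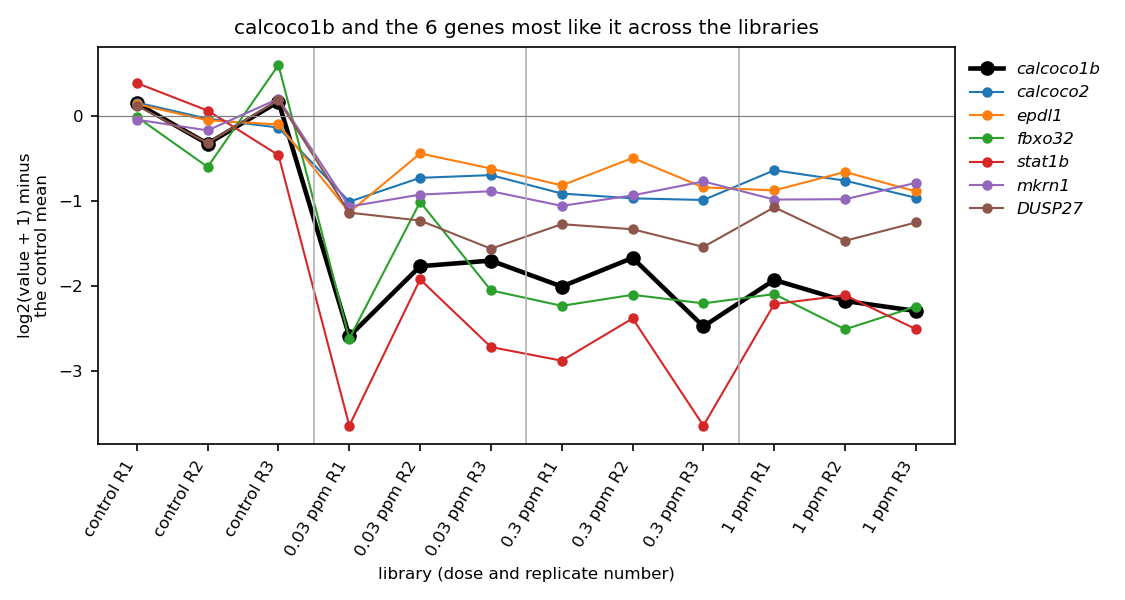
Level of calcoco1b and of the 6 named genes most like it in each library, as log2(value + 1) minus each gene's control mean, with libraries ordered by dose and replicate. For all 7 genes the 9 exposed libraries lie below the 3 control libraries, which 0.963% of all genes had. The 6 were chosen by likeness over these same libraries, so their separation largely follows from the choice.

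Other autophagy genes outside the naming rule showed no call. A list of 79 symbols of such genes, some of them synonyms, held regulators, further complex subunits and organelle receptors. From it 68 genes were matched and tested, and limma called 0 in each of the 6 dose comparisons. For the mean of the doses 1 had an unadjusted p under 0.05 with a higher value (1.68% of all genes) and 4 with a lower one (2.67% of all genes). The gene nearest to a call was fam134b (ENSDARG00000079059), whose human counterpart is a receptor for autophagy of the endoplasmic reticulum. It had 137, 98 and 132 normalised counts in control libraries, 61, 88 and 51 at 0.03 ppm, 59, 75 and 50 at 0.3 ppm and 85, 64 and 69 at 1 ppm. All exposed libraries lay below the control, which 0.963% of all genes had. The exposed libraries of fam134b averaged 66.9 ± 13.6 (SD, n = 9), against 122 ± 21.2 in the control (SD, n = 3). Its log2 difference was -0.87 (SE 0.21), with a limma adjusted p of 0.242. The next was tsc1b, which encodes a subunit of an inhibitor of the growth kinase mTOR, at -0.28.

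Lysosome genes gave 0 calls by limma among 59 genes tested from 63 listed symbols. At an unadjusted p under 0.05 for the mean of the doses 2 passed, both lower (2.67% of all genes were lower at that threshold). The closest to a call were ctsc and ctsba, which encode the lysosomal proteases cathepsin C and cathepsin B. ctsc averaged 888 ± 169 in the exposed libraries (SD, n = 9) and 1215 ± 38.9 in the control (SD, n = 3), a log2 difference of -0.47 with an adjusted p of 0.597. ctsba had a value of -0.32. From 6 listed symbols of muscle atrophy ubiquitin ligases 5 genes were tested, and 2 were called for the mean of the doses (0.188% of all genes). They were fbxo32 at -2.12 (adjusted p 0.00731) and trim63a at -1.17 (adjusted p 0.00197). The other 3 were not called, with values between -0.31 and 0.03. This list was drawn up with earlier results of these data known, so its share of calls is not an independent result.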

How the data were processed

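RNA was sequenced from 12 pools of 10 larvae, 3 per group, with a stranded poly-A protocol per the labels. GRCz10 is the genome build in the submitters' processing notes, which also list DESeq2 1.10.1, RSEM 1.2.28, STAR 2.5.1b and CASAVA. The authors deposited normalised counts rounded to whole numbers, recorded here as a score because they are not raw counts. Tests of raw counts were therefore not used, and no sequences or coordinates are given.

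The deposited values were taken as log2(value + 1) without further scaling and fitted with limma 3.58.1 in R 4.3.3, with 1 coefficient per group over 12 libraries (8 residual degrees of freedom) and a mean-variance trend. Genes with at least 10 in at least 3 libraries were tested, two-sided, with Benjamini-Hochberg adjustment over 22320 genes. The smallest p of an exact test of 3 against 3 libraries is 0.1. No 2 libraries held identical values.

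The members, lists and tests were chosen with earlier results of these data known. Named genes are members called in a comparison, the 2 members per role of smallest p for the mean of the doses, the 6 named genes most like calcoco1b, and the 2 of smallest p or the called ones of each further list. All 44 gene IDs are in the name table used, 11 with the same spelling of the symbol.

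Same-number libraries of 0.3 ppm and control deviated together, with r of deviations 0.145 to 0.286 and at most -0.0106 between different numbers. For 1 ppm and control the same-number r was 0.119 to 0.478, and different numbers reached 0.204. For 0.03 ppm and control the same-number r was 0.0776 to 0.291, and different numbers reached 0.226. Between 1 and 0.3 ppm the same-number r was 0.28 to 0.46, with at most -0.0753 between different numbers. For 0.3 and 0.03 ppm it was 0.116 to 0.338, and different numbers reached 0.0892. For 1 and 0.03 ppm it was 0.0268 to 0.411, and different numbers reached 0.242. Pairing by number was thus clear in only some of the comparisons, although every same-number r was above 0. A replicate block was therefore an alternative. Other alternatives covered scaling, filter, pseudocount, library weights, the trend and left-out libraries.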

Additional observations from a re-analysis of the deposited data

How the results depend on the processing

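The depth in reads is unknown, and 3 libraries per group limit what could be called. The fits with a replicate block gave calcoco1b an adjusted p of 0.0205 at 0.03 ppm, 0.0116 at 0.3 ppm, 0.00825 at 1 ppm and 0.00207 for the mean of the doses, and changed no call of a member, while the calls over all genes were 58 instead of 31 at 1 ppm and 78 instead of 42 for the mean of the doses. Scaling by TMM or median-of-ratios factors, other pseudocounts and filters also kept the direction and the call of calcoco1b in every dose comparison with the control. Libraries rescaled to equal totals left 0 members called at 0.03 ppm (calcoco1b -1.96, adjusted p 0.0930), 1 at 0.3 ppm and 1 for the mean of the doses, and turned calcoco2 between 1 and 0.03 ppm to -0.017. With only the groups of the comparison in the fit, which leaves fewer libraries, the count was 0 at each dose (calcoco1b -2.02, -2.05 and -2.13 at the rising doses, adjusted p 0.142, 0.0556 and 0.0554). Without the trend it was 0 at 0.03 ppm (calcoco1b -2.02, adjusted p 0.0636), 1 at 0.3 ppm and 4 for replicate 2. With estimated library weights, 2 members were called at 0.03 ppm, 2 at 1 ppm, 2 for the slope and 4 for the mean of the doses (calcoco1b, calcoco2, optn and ulk1a), while the calls over all genes grew to 57, 768, 443 and 802. The same weights gave tfe3b -0.061 and lamp1 -0.028 for the mean of the doses. The cause of these shifts was not tested. Leaving out a library or a replicate number moved calcoco1b between -2.31 and -1.66 at 0.03 ppm, -2.40 and -1.75 at 0.3 ppm, -2.29 and -1.97 at 1 ppm, -2.33 and -1.94 for the mean of the doses, -0.50 and 0.13 between 1 and 0.03 ppm, and -0.69 and -0.56 for the slope. The slope call was lost without control replicate 1 (adjusted p 0.0569) or 3 (0.0792) or 1 ppm replicate 1 (0.0656) or 3 (0.0820). It was also lost without replicate 1 (0.371), 2 (0.0601) or 3 (0.599) of all groups. Without replicate 1 in all groups the mean-of-doses adjusted p was 0.236, and without replicate 3 it was 0.161. Counts of called members ranged from 0 to 1 at 0.03 ppm, 0 to 2 at 0.3 ppm, 0 to 1 at 1 ppm, 0 to 2 for the mean of the doses, 0 to 1 for the slope and 0 to 6 for replicate 2. Values near 0 changed sign, with ranges of -0.15 to 0.17 for calcoco2 between 1 and 0.03 ppm and, for the mean of the doses, -0.093 to 0.090 for lamp1, -0.051 to 0.57 for tfe3b and -0.27 to 0.027 for wipi2. The r of calcoco1b with its nearest genes over deviations from the group means, in the order epdl1, stat1b, fbxo32, calcoco2, DUSP27 and mkrn1, was 0.751, 0.735, 0.642, 0.608, 0.212 and 0.172.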
